A study of Mus musculus with 6 samples.

Results

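The kinases that phosphorylate splicing factors were followed as 9 genes, chosen by symbol: the CDC-like kinases Clk1, Clk2, Clk3 and Clk4, the SR protein kinases Srpk1, Srpk2 and Srpk3, the pre-mRNA processing kinase Prpf4b, and Dyrk1a, a dual-specificity kinase of nuclear speckles. They are 9 of the 52550 genes in the count table, and all 9 were among the 17621 genes with enough reads to be tested. The table of splicing events lists 64 events in these genes out of 40961, and 44 of them were among the 18829 with enough reads. RNA of the hippocampus was sequenced in 2 groups of 3 samples, control and L-DL KD. At 8 weeks of age, male wild-type C57BL/6 J mice had adeno-associated virus injected into the CA1 area of both hippocampi, with control shRNA in the control group and L-DL shRNA in the other, and the control virus had the higher titre. The RNA is that of hippocampus and so includes cells outside the injected area. The sample descriptions call the second group hnRNP DL-/-, whereas the genotype field and the study's methods describe a knockdown by shRNA. Each library is a single labelled sample, and since no label says that the libraries came from separate animals, p-values measure the spread between these samples.

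SR proteins bind exons and recruit the spliceosome, and their activity and location depend on the phosphorylation of serines in stretches of arginine and serine. SRPKs act mainly in the cytoplasm, where phosphorylated SR proteins are taken up by the nuclear importer transportin-SR, and CLKs act in the nucleus, where they release SR proteins from speckles. CLK genes are themselves spliced in alternative ways: the transcript that skips a conserved internal exon, and transcripts that keep the introns on either side of it, do not encode a full kinase. PRPF4B phosphorylates components of the assembling spliceosome, and DYRK1A phosphorylates SR proteins and tau, among many substrates.

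That conserved exon is exon 4 of CLK transcripts in GENCODE M21 (GRCm38): of the principal transcript in Clk1, Clk3 and Clk4, and in Clk2 of the coding transcript Clk2-203, whereas exon 4 of the principal transcript, Clk2-202, is a shorter form of 85 nt. Its sequence is shown because several of the events below turn on it. In Clk1 it covers chr1:58420121-58420211 (minus strand, 91 nt), in Clk2 chr3:89169615-89169702 (plus strand, 88 nt), in Clk3 chr9:57758627-57758723 (minus strand, 97 nt) and in Clk4 chr11:51273078-51273168 (plus strand, 91 nt). Capitals in the Clk1 and Clk4 exons mark the 6 of 91 positions at which these differ from each other (93.4% identity). Capitals in the Clk2 exon mark the first 3 bases, which are absent from Clk2-202, since that transcript uses a second acceptor 3 nt further on. No capitals are used for Clk3.
Clk1 exon 4: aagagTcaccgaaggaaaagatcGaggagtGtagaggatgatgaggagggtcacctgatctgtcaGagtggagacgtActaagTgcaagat
Clk2 exon 4: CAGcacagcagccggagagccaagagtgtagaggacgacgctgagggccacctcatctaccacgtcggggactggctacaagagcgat
Clk3 exon 4: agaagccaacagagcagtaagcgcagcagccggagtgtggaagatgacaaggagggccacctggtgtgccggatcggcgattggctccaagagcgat
Clk4 exon 4: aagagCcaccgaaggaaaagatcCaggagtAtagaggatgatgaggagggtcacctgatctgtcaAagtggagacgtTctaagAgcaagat

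Each of these exons, the shorter Clk2 form included, is 1 nt longer than a multiple of 3, so its loss shifts the reading frame. Read from the annotated start codon without exon 4, the Clk1 transcript met a stop at codon 136 instead of 484, the Clk2 transcript at 137 instead of 501 in Clk2-203 and instead of 500 in Clk2-202, the Clk3 transcript at 301 instead of 639 and the Clk4 transcript at 135 instead of 482. In all 4 the early stop lay 740 to 818 nt before the last exon junction.

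Another Clk4 exon is shown because it had the smallest p-value among the events below. It has 67 nt, lies at chr11:51268165-51268231 on the plus strand between exons 2 and 3 of the principal transcript, and is part of 5 annotated Clk4 transcripts, which are typed as protein coding, nonsense-mediated decay or retained intron.
Clk4 cassette exon: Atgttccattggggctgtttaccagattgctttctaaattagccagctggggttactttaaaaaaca
The capital marks its first base, which completes a stop codon begun at the end of exon 2. With the exon inserted in the principal transcript, reading from the start codon in exon 2 ended there, at codon 54. The annotated coding transcript that holds the exon, Clk4-205, starts instead 58 nt further on in exon 2, in another frame. From that start, with the exon inserted, reading ran on to codon 485 and ended in exon 13.

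Library totals were 16052529 to 17913064 counted reads, and junction reads in the splicing table summed to 6760349 to 7939931 a library. Levels are given as CPM, the reads of a gene per 1e6 counted reads, after TMM scaling, which corrects totals for composition. Hnrnpdl, the gene targeted by the shRNA, had 2862, 3120 and 2689 reads in the control libraries and 3939, 2680 and 2904 in the libraries labelled L-DL KD, and its log2 fold change was 0.03 (SE 0.12, adjusted p = 0.90, edgeR's quasi-likelihood test, adjusted after Benjamini and Hochberg over all genes tested). Gene counts add the long isoform, L-DL, to the short isoform and were therefore no measure of the targeted isoform. Because the gene was not lower, directions below are those of the libraries labelled L-DL KD. Markers of other cells moved with the labels: the 12 microglial markers summed to 1439.6 to 1799 CPM in the control libraries and 3018 to 3931 in the others, with 12 of 12 higher, and the 12 neuronal markers summed to 9714 to 10235 and 6451 to 7189 CPM, with 9 lower and 2, Nefl and Nefm, higher. Of 8 endothelial markers 4 were higher, with sums of 308 to 330 and 379 to 454 CPM, and of 8 astrocyte markers 3 were lower and 2 higher, with sums of 7870 to 8017 and 6162 to 7250.0 CPM. Of 10 interferon response genes 6 were higher (387 to 577 and 500.5 to 873 CPM), and of 8 oligodendrocyte markers 1 was higher (7885 to 8430 and 6820 to 10033 CPM). No gene of these lists was at 0 in any library. For comparison, 15.6% of all genes tested were higher and 15.0% lower. In bulk tissue, fewer cells of a type and less RNA per cell cannot be told apart.

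Srpk1 and Srpk2, the genes of the widely expressed SR protein kinases, had lower counts in the group labelled L-DL KD, and no member was higher. These were 2 of 9 members lower and 0 of 9 higher at an adjusted p under 0.05, where 15.0% of all genes tested were lower and 15.6% higher. The median log2 fold change was 0.02 over the 9 members and 0.01 over all genes tested. In 4 of 9 members (44.4%) the 2 groups of libraries did not overlap, against 47.2% of all genes tested, a share near the background.

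Srpk1 (ENSMUSG00000004865, chr17:28587648-28622709, minus strand) is best known for phosphorylating SRSF1. It was at 68.8, 74.6 and 74.0 CPM in the control libraries and at 54.7, 52.9 and 54.9 CPM in the libraries labelled L-DL KD. Every control library was above every library of the other group, and the libraries of the latter lay close together. The mean fell by 25.3%, from 72.5 ± 3.16 to 54.1 ± 1.1 CPM (SD, n = 3 each), a log2 fold change of -0.42 (SE 0.07, adjusted p = 0.0027, edgeR).

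Srpk2 (ENSMUSG00000062604, chr5:23503264-23684617, minus strand) is the SR protein kinase most abundant in brain. It was at 192, 201 and 205 CPM in the control libraries and at 148, 172 and 149 CPM in the others. The groups did not overlap, and library 2 of the L-DL KD group was the closest to the controls. Its log2 fold change was -0.35 (SE 0.08, adjusted p = 0.012, edgeR), and its mean fell by 21.6%, from 199 ± 6.34 to 156 ± 13.5 CPM (SD, n = 3 each). Of the annotated exons of Srpk2, 6.99% overlap exons of Kmt2e on the opposite strand, and reads from the pair cannot be told apart there, because no strand setting is given in the sources used here. Both genes passed the threshold under all 11 alternatives tried, with an adjusted p of at most 0.018 for Srpk1 and 0.048 for Srpk2. In the same libraries 9 of 12 neuronal markers fell and 12 of 12 microglial markers rose, as given above, and their part in the result was not tested.

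Srpk3 (ENSMUSG00000002007, chrX:73774405-73778925, plus strand), the kinase known from muscle, was the least abundant member, with 139 to 269 reads a library. It was at 8.57, 9.30 and 13.6 CPM in the control libraries and at 14.2, 15.1 and 11.7 CPM in the others. The third control library lay above the third L-DL KD library, so the groups overlapped, and the log2 fold change of 0.38 (SE 0.20, adjusted p = 0.19, edgeR) did not pass the threshold.

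**Figure D1:**
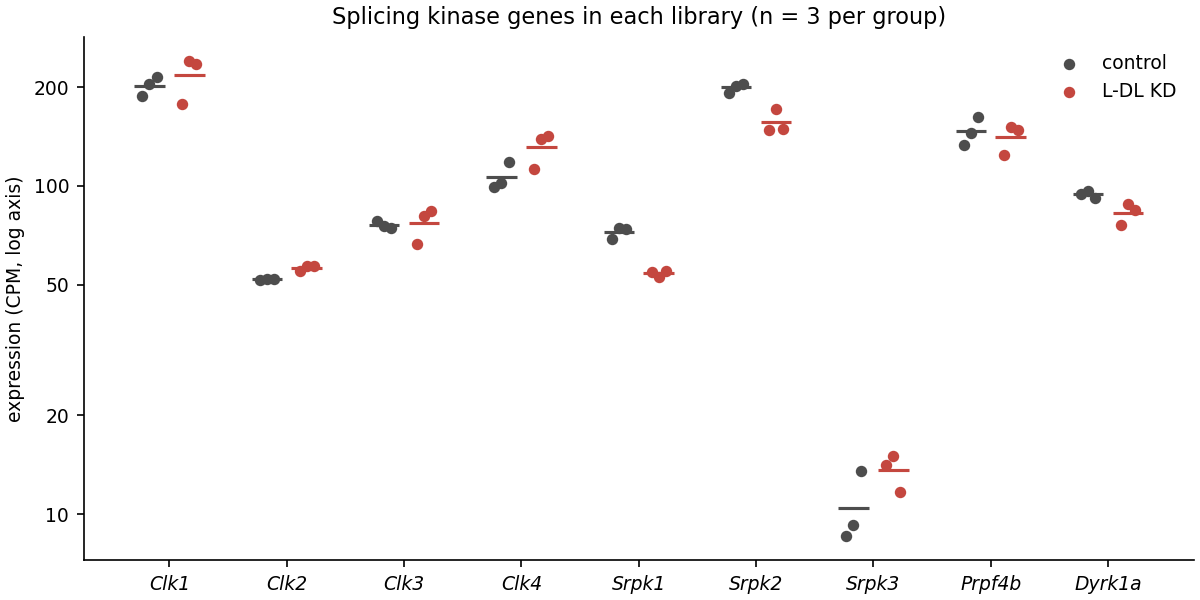
Expression of the 9 splicing kinase genes. Each point is the CPM of a library on a log axis, with control libraries in grey and libraries labelled L-DL KD in red, and bars are group means (n = 3). Srpk1 and Srpk2 are lower in all 3 libraries labelled L-DL KD than in any control, while the groups of Clk1, Clk3, Clk4, Srpk3 and Prpf4b overlap.

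Among the CLK genes none passed the threshold, and Clk4 came closest. Clk4 (ENSMUSG00000020385, chr11:51261730-51281766, plus strand), a close relative of Clk1, was at 98.9, 102 and 118 CPM in the control libraries and at 113, 139 and 142 CPM in the others. The lowest library of the L-DL KD group lay between the second and the third control. The log2 fold change was 0.30 (SE 0.11, adjusted p = 0.067, edgeR). It was 0.40 (adjusted p = 0.0069) without library 1 of the L-DL KD group, and Clk4 passed the threshold in 5 of 11 alternatives, whose adjusted p ranged from 0.0069 to 0.20.

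Clk1 (ENSMUSG00000026034, chr1:58410189-58424066, minus strand), the founding member of the family, was at 187, 204 and 214 CPM in the control libraries and at 178, 241 and 235 CPM in the others. The group labelled L-DL KD held both the lowest and the highest library. The log2 fold change of 0.11 (SE 0.12, adjusted p = 0.53, edgeR) became 0.24 (adjusted p = 0.038) without library 1 of that group, and the adjusted p ranged from 0.038 to 0.86 over the 11 alternatives. This library was the lowest of its group in 7 of the 9 members, Clk1 and Clk4 among them, and library 1 of the controls was likewise the lowest of the controls in 7.

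Clk2 (ENSMUSG00000068917, chr3:89164795-89176921, plus strand), a kinase also known from insulin signalling, varied least. It was at 51.7, 51.9 and 52.1 CPM in the control libraries and at 55.0, 57.1 and 57.0 CPM in the others, so that the groups did not overlap. Its log2 fold change was 0.12 (SE 0.06, adjusted p = 0.19, edgeR). Clk3 (ENSMUSG00000032316, chr9:57750624-57765860, minus strand) was at 78.4, 75.3 and 74.7 CPM in the control libraries and at 66.3, 80.7 and 84.1 CPM in the others. The controls lay inside the range of the other group, and the log2 fold change was 0.02 (SE 0.10, adjusted p = 0.91, edgeR). Exons of Edc3 on the opposite strand cover 15.2% of the annotated exons of Clk3.

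Prpf4b (ENSMUSG00000021413, chr13:34875302-34906064, plus strand) was at 134, 144 and 163 CPM in the control libraries and at 124, 151 and 148 CPM in the others, with overlapping groups and a log2 fold change of -0.06 (SE 0.10, adjusted p = 0.71, edgeR). Dyrk1a (ENSMUSG00000022897, chr16:94570010-94695517, plus strand), a dosage-sensitive gene that also phosphorylates tau, was at 94.5, 96.7 and 92.0 CPM in the control libraries and at 75.9, 88.3 and 84.2 CPM in the others. All 3 libraries labelled L-DL KD were below all 3 controls. The difference of -0.19 on the log2 scale (SE 0.08, adjusted p = 0.092, edgeR) did not pass the threshold, nor did it under any of the 11 alternatives, with adjusted p from 0.072 to 0.23.

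**Figure D2:**
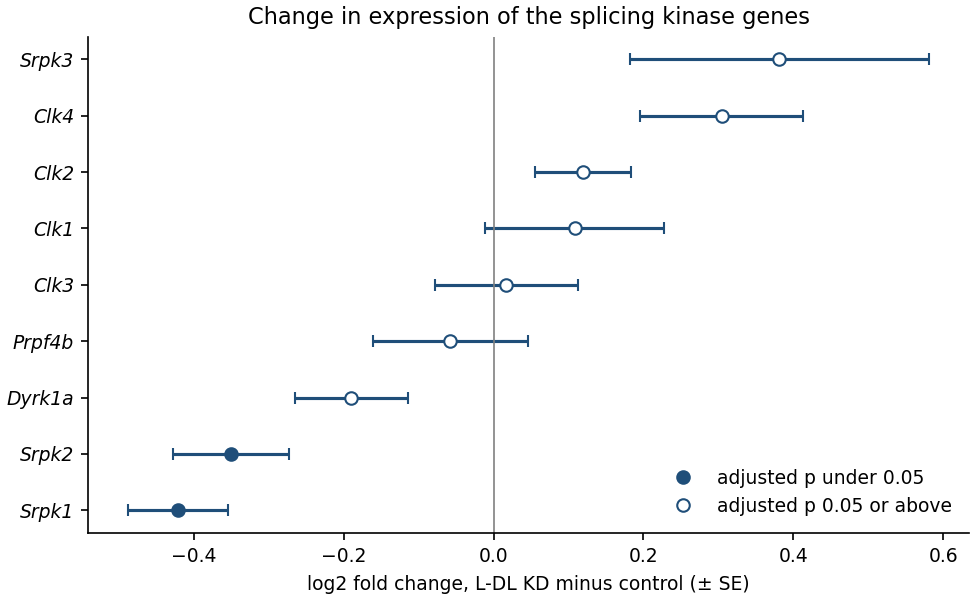
Change in expression of the splicing kinase genes. Points are log2 fold changes, L-DL KD minus control, with bars of 1 SE from edgeR, and filled points have an adjusted p under 0.05. Srpk1 at -0.42 and Srpk2 at -0.35 are filled, and the other 7 genes are open.

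To order the members by level, CPM was divided by the length of annotated exons in kilobases. In the control libraries Clk1 was highest at 24.8, with a range of 23.0 to 26.4. Clk4 at 18.3 (17.1 to 20.3) and Prpf4b at 17.4 (15.9 to 19.3) came next and overlapped. Srpk2 followed at 14.3, Dyrk1a at 11.4, Clk2 at 9.79 and Clk3 at 9.01, and Srpk1 at 5.86 and Srpk3 at 3.77 were the lowest. No neighbours other than Clk4 and Prpf4b overlapped in this order. In the libraries labelled L-DL KD, Srpk1 at 4.37 (4.27 to 4.44) came below Srpk3 at 4.90 (4.20 to 5.42), with overlapping ranges, and Clk1 at 26.8 (21.9 to 29.6) overlapped Clk4 at 22.6 (19.5 to 24.5). Srpk2 at 11.2, Clk2 at 10.6 and Dyrk1a (9.19 to 10.7) each overlapped the next in the order there. Clk3 at 9.12 (7.85 to 9.95) followed Dyrk1a and did not overlap Srpk3 below it. Annotated exon length adds all transcripts of a gene, so these levels rank the genes only roughly.

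The genes whose log2 CPM followed Srpk1 most closely over the 6 libraries were Rrn3, Tmem144, Zdhhc15, Efcab5 and Med24, with Pearson's r of 0.997, 0.996, 0.995, 0.995 and 0.995. These values describe 6 libraries in 2 groups and mostly restate the difference between the groups. Rrn3, an initiation factor of RNA polymerase I, was at 59.7 to 67.4 CPM in the control libraries and at 30.1 to 32.6 CPM in the others.

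The genes around these kinases were read from fixed lists. Over all genes tested, 15.6% were higher and 15.0% lower, and the counts of each list below stand beside these shares. Of 13 genes of SR proteins and Tra2 factors, the substrates, 1 was higher and 0 were lower. This was Srsf2, which was at 68.2, 75.5 and 76.6 CPM in the control libraries and at 87.4, 92.4 and 112 CPM in the others (log2 fold change 0.40, SE 0.10, adjusted p = 0.020, edgeR). The next smallest p-values of the list were those of Srsf11, at -0.23 (adjusted p = 0.0502, not past the threshold), and Srsf6, at 0.24 (adjusted p = 0.069). The call of Srsf2 was lost without any of the control libraries (0 of 13 higher each time), and 3 of 13 were higher without library 1 of the L-DL KD group.

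Of 16 related kinases of the DYRK, HIPK, nuclear CDK and AKT families, 2 were higher and 2 lower. Dyrk3, which dissolves nuclear speckles and stress granules, rose from 14.5 to 15.2 CPM in the control libraries to 23.5 to 30.0 CPM in the others (log2 fold change 0.90, SE 0.12, adjusted p = 0.0015, edgeR). Hipk3 rose as well, by 0.32 on the log2 scale (adjusted p = 0.0094). Akt1, of the AKT family, fell by 0.24 on the log2 scale (adjusted p = 0.047). The count of lower genes went from 2 to 1 when any control library, or library 2 or 3 of the L-DL KD group, was left out. AKT signalling is known to activate SRPKs.

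Of 9 genes of phosphatases that act on SR proteins or spliceosomes and of the SR importer, 2 were higher and 2 lower. Among the catalytic subunits of protein phosphatase 1, Ppp1cb (0.28, adjusted p = 0.026) and Ppp1ca (0.19, adjusted p = 0.041) rose, while Ppp1cc did not pass the threshold. Those of protein phosphatase 2A, Ppp2cb (-0.25, adjusted p = 0.044) and Ppp2ca (-0.20, adjusted p = 0.046), fell. Values are log2 fold changes with edgeR's adjusted p. The importer gene Tnpo3 was at 64.0 to 73.4 CPM in the control libraries and 60.0 to 69.3 CPM in the others (log2 fold change -0.12, adjusted p = 0.32). These 4 calls were lost when any control library was left out, with 0 higher and 0 lower each time, and likewise without library 2 or library 3 of the L-DL KD group.

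A list of genes linked to temperature and heat shock was read because body temperature is known to change the activity of CLKs. Of 8 genes, 0 were higher and 6 lower, all 6 of them genes of heat shock proteins. Dnajb1 was at 91.2, 93.3 and 102 CPM in the control libraries and at 38.1, 48.2 and 43.2 CPM in the others, a log2 fold change of -1.15 (SE 0.10, adjusted p = 0.00024, edgeR). Hspa1a fell by 2.17 and Hsp90aa1 fell by 0.65 on the log2 scale (adjusted p = 0.0013 and 0.0014, edgeR). Hspa1a has a near-identical copy, Hspa1b, with which it may share reads. The cold-inducible genes of the list did not pass the threshold: Cirbp had a log2 fold change of 0.51 (adjusted p = 0.053) and Rbm3 of -0.07 (adjusted p = 0.69). The part of cell composition in these changes was not tested.

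Splicing of the members was read from junction reads. PSI (percent spliced in, written here from 0 to 1) is the share of the inclusion form once the reads of both forms are scaled by their effective lengths. The test compared the odds of inclusion to skipping between the groups with edgeR over all events, and a library effect removed differences in expression. The 3 libraries of a group are numbered in the order in which the counts are listed, which need not be the order of the gene counts. Junction counts carry no group label, and which group is L-DL KD was inferred as described under processing. None of the 44 tested events passed an adjusted p of 0.05 (0 events, where 0.255% of all tested events passed), and the smallest adjusted p was 0.14. At an unadjusted p under 0.05 there were 5 events, 4 in Clk4 and 1 in Clk1, or 11.4% against 13.3% of all tested events. PSI did not overlap between the groups in 5 events, also 11.4%, against 18.4% of all tested events. Limma on the log2 ratio of the forms called 0 events over all genes. Both shares of the members were below those of all tested events.

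The Clk4 exon of 67 nt was included more often in the libraries labelled L-DL KD. Inclusion reads were 26, 17 and 31 in the control libraries and 91, 61 and 98 in the others, while reads that joined exon 2 directly to exon 3 were 108, 109 and 131 in the control libraries and 80, 150 and 127 in the others. PSI was 0.143, 0.098 and 0.141 in the control libraries and 0.441, 0.220 and 0.348 in the others. Every library labelled L-DL KD was above every control, and the second of them was the nearest. The mean rose from 0.127 ± 0.026 to 0.336 ± 0.111 (SD, n = 3), and the log2 change in odds was 1.75 (SE 0.46, unadjusted p = 0.0023, adjusted p = 0.14, edgeR across all events), which did not pass the threshold. Over the 9 alternatives the adjusted p ranged from 0.025 to 0.38, and the smallest was reached when only the better covered events were tested. The exon is the one printed above whose insertion ends the frame of the principal transcript at codon 54.

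**Figure D3:**
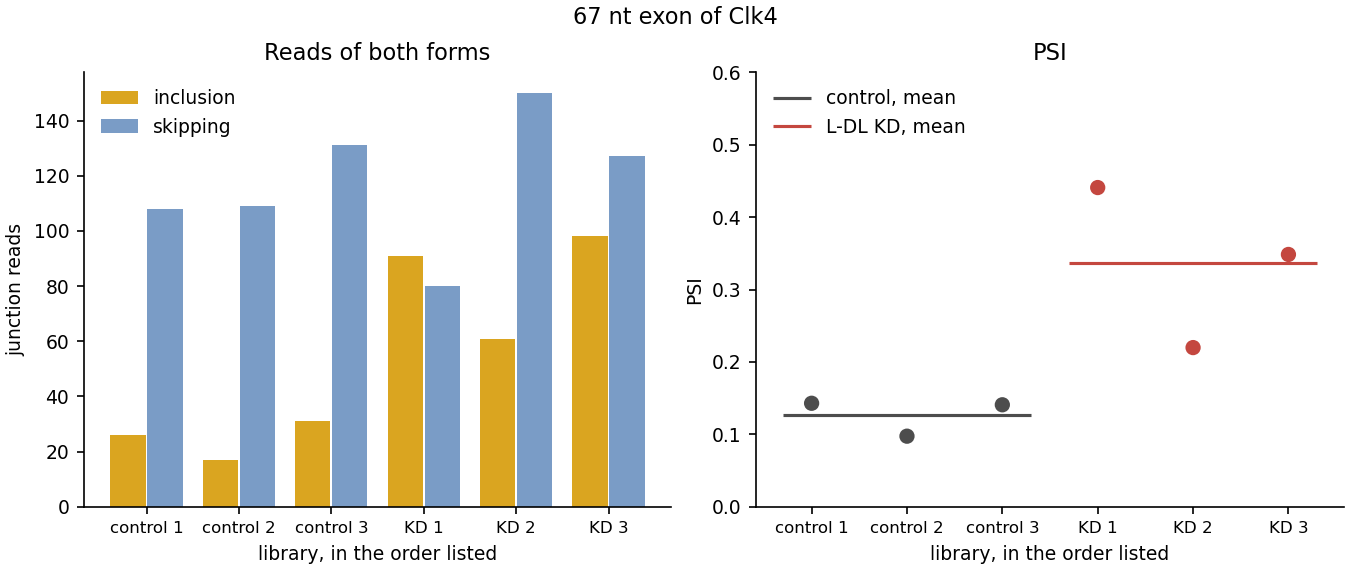
The 67 nt exon of Clk4. The left panel gives inclusion and skipping junction reads in each library and the right panel gives PSI, with lines at the group means (n = 3). Inclusion reads are 17 to 31 in control libraries and 61 to 98 in libraries labelled L-DL KD, while skipping reads overlap.

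The other 3 Clk4 events with an unadjusted p under 0.05 share reads with this exon or its neighbours and are not separate findings. In the event that sets the 67 nt exon against an exon of 59 nt (chr11:51270537-51270595), both lying before exon 3, the share of the 67 nt exon was 0.404, 0.199 and 0.318 in the control libraries and 0.697, 0.503 and 0.687 in the others (unadjusted p = 0.0028, adjusted p = 0.14, edgeR). Reads of the 59 nt exon spliced to exons 2 and 3 were 37, 66 and 64 in the control libraries and 38, 58 and 43 in the others. The 59 nt exon against direct joining of exons 2 and 3 had a PSI of 0.254 ± 0.053 in the control libraries and 0.223 ± 0.030 in the others (adjusted p = 0.85), so of the 2 exons it was the reads of the 67 nt exon that set the groups apart. When the 67 nt exon was scored between exon 2 and the 59 nt exon, PSI was 0.520, 0.181 and 0.281 in the control libraries and 0.690, 0.497 and 0.655 in the others, with the first control library above the second of the others (unadjusted p = 0.015, adjusted p = 0.27, edgeR). When the 59 nt exon was scored after the 67 nt exon, PSI fell from 0.684 ± 0.101 to 0.422 ± 0.061 without overlap (unadjusted p = 0.031, adjusted p = 0.33, edgeR). That event rests on 26 to 78 reads a library.

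The conserved exon 4 of the CLK genes was mostly included, and its PSI overlapped between the groups in all 4 genes. In Clk3 PSI was 0.968, 0.930 and 0.908 in the control libraries and 0.934, 0.939 and 0.965 in the others (adjusted p = 0.91, edgeR). In Clk1 it was 0.793, 0.742 and 0.872 in the control libraries and 0.885, 0.788 and 0.725 in the others (adjusted p = 0.99). In Clk4 it was 0.824, 0.714 and 0.641 in the control libraries and 0.590, 0.692 and 0.654 in the others (adjusted p = 0.75).

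In Clk2 the exon of 88 nt had a PSI of 0.774, 0.767 and 0.762 in the control libraries and of 0.847, 0.614 and 0.643 in the others (adjusted p = 0.81). The controls lay close together, and the other group spread to both sides of them. The exon of 85 nt, from the second acceptor, had 0.725 ± 0.018 and 0.651 ± 0.136, with the same skipping reads. Use of the first acceptor over the second was 0.622 ± 0.044 in the control libraries and 0.634 ± 0.052 in the others (adjusted p = 0.98). These exons had 3 to 28 skipping reads a library over the 4 genes.

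Reads across exon-intron boundaries added a form that PSI of exon 4 leaves out. In Clk1 the splicing table holds a segment of 1642 nt, chr1:58419667-58421308, that keeps introns 3 and 4 with exon 4 between them, as in the annotated transcripts Clk1-204 and Clk1-212. Its boundary reads were 331, 370 and 367 in the control libraries and 395, 519 and 419 in the others, against 92, 111 and 120 and then 86, 119 and 72 reads that included exon 4 by splicing. Scaled by length, boundary reads made up 69.6%, 66.5% and 68.1% of the boundary, inclusion and skipping reads in the control libraries and 76.5%, 73.4% and 77.2% in the others. The groups did not overlap, with means of 68.1 ± 1.54% and 75.7 ± 2.04% (SD, n = 3; two-sided exact permutation p = 0.1, the smallest that 3 against 3 can give). The share of spliced inclusion was 25.6 ± 1.93% and 19.4 ± 2.50%, also apart, and that of skipping was 6.34 ± 2.27% and 4.88 ± 1.90%.

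This comparison was chosen after the values were seen. The same share could be computed for 225 skipped exons of all genes, and in 10.7% of them the libraries labelled L-DL KD were all above the controls, while in 19.1% the groups were apart in either direction. In Clk2, with the exon of 88 nt, boundary reads made up 32.7%, 24.4% and 23.2% in the control libraries and 29.6%, 37.6% and 39.8% in the others. The first library of the L-DL KD group lay below the first control, so the groups overlapped (26.8 ± 5.19% and 35.7 ± 5.40%, exact permutation p = 0.2). With the exon of 85 nt, which shares its skipping and part of its inclusion reads, the shares were 30.1 ± 4.80% and 39.7 ± 5.22%. In Clk3, boundary reads made up 23.0 ± 1.44% in the control libraries and 21.4 ± 4.18% in the others (exact permutation p = 0.7). Clk1 was thus read mainly from unspliced boundaries around exon 4 in every library of both groups, and Clk3 in every library mainly from spliced junctions.

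**Figure D4:**
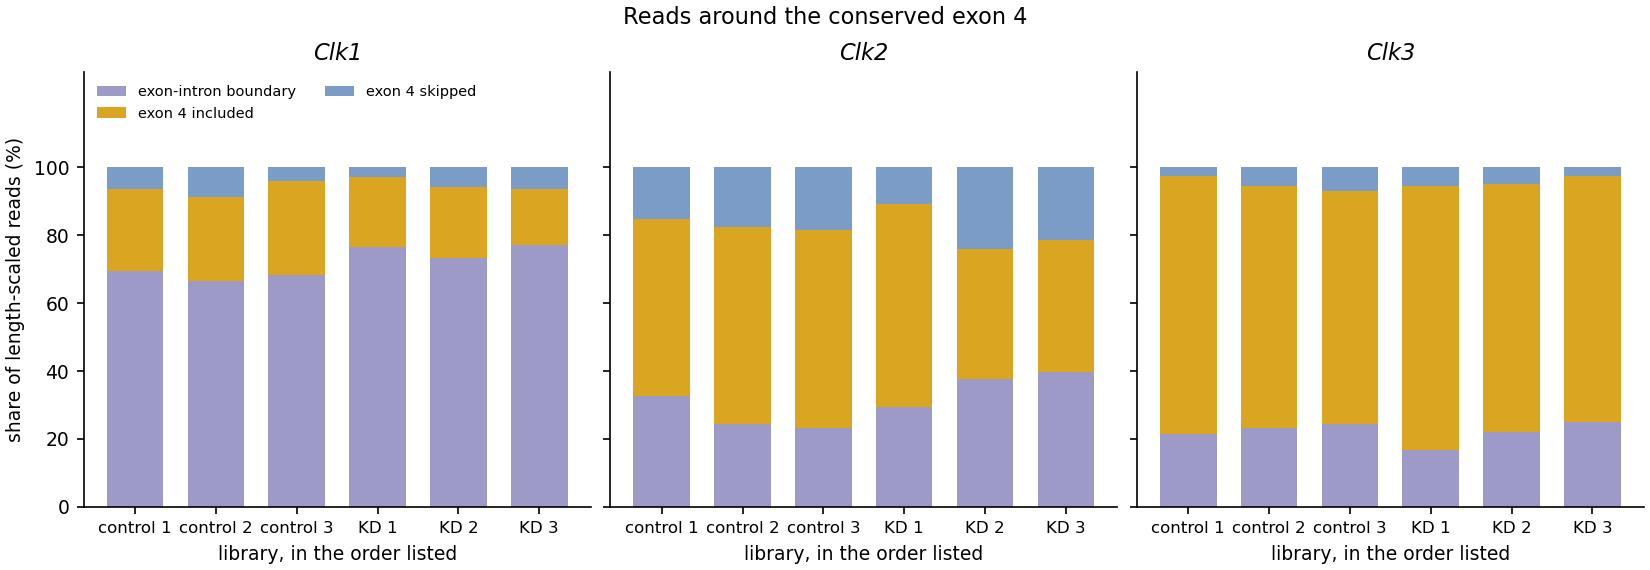
Reads around the conserved exon 4 of Clk1, Clk2 (the form of 88 nt) and Clk3. Stacked bars give, for each library, the share in % of length-scaled reads across exon-intron boundaries, across junctions that include exon 4 and across the junction that skips it. Boundary reads make up 66.5 to 69.6% in the control libraries and 73.4 to 77.2% in the libraries labelled L-DL KD for Clk1, and overlap for Clk2 and Clk3.

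Intron retention was listed and tested for 10 introns or intron pairs of the members. PSI of the retained form was higher in the libraries labelled L-DL KD in 6 and lower in 4, and the median change was 0.023, against 0.003 over the 2294 retained introns tested in all genes, of which 1234 were higher and 1060 lower. The median of the 10 was 0.012 without the second control library listed and 0.034 without the third. None of the 10 had an unadjusted p under 0.05. In Clk2 and Clk3 the intron pair shares boundary reads with the single introns, so the 10 are not independent.

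In Clk2, intron 3 (chr3:89168924-89169614, 691 nt) had 39, 42 and 31 boundary reads in the control libraries and 63, 54 and 44 in the others. PSI was 0.285, 0.231 and 0.237 in the control libraries and 0.391, 0.375 and 0.344 in the others, and the groups did not overlap (0.251 ± 0.030 and 0.370 ± 0.024; unadjusted p = 0.083, adjusted p = 0.45, edgeR). The spliced form of this event counts only the junction to the first acceptor. Reads joined to the second acceptor, 39, 41 and 26 in the control libraries and 30, 34 and 20 in the others, are left out. With them, PSI would be lower in both groups. Intron 4 of Clk2 (346 nt) had a PSI of 0.288 ± 0.033 in the control libraries and of 0.266, 0.449 and 0.477 in the others, whose first library lay among the controls (unadjusted p = 0.17, adjusted p = 0.59, edgeR). Retention of both introns, set against the skipping junction, was 0.608 ± 0.066 and 0.664 ± 0.063.

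In Clk3, intron 3 (2100.0 nt) had a PSI of 0.419 ± 0.066 in the control libraries and 0.471 ± 0.029 in the others, and intron 4 (276 nt) had 0.315 ± 0.037 and 0.295 ± 0.054. The pair set against skipping had 0.829 ± 0.061 and 0.827 ± 0.075. All 3 overlapped between the groups. In Clk1, intron 6 (87 nt) was retained at 0.066 ± 0.044 and 0.054 ± 0.017, and introns 3 and 4, set against the skipping junction only, at 0.915 ± 0.029 and 0.940 ± 0.023. Intron 7 of Clk4 (191 nt) was retained at 0.059 ± 0.031 and 0.080 ± 0.015. Introns 3 and 4 of Clk2 and Clk3, scored each against its own junction, thus had mean PSI of 0.251 to 0.471. For intron 3 of Clk2 that junction leaves out splicing to the second acceptor, so its PSI overstates retention. The introns of Clk1 and Clk4 away from exon 4 had 0.054 to 0.080.

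In Srpk3, intron 13 (chrX:73778175-73778253, 79 nt) had a PSI of 0.878, 0.532 and 0.609 in the control libraries and of 0.519, 0.348 and 0.490 in the others. The lowest control was above the highest of the others, with 0.673 ± 0.182 and 0.453 ± 0.091 (unadjusted p = 0.14, adjusted p = 0.54, edgeR). The event rests on 24 to 49 reads a library, and the first control library had only 2 spliced reads. The PSI change was -0.221, and -0.118 without that library.

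**Figure D5:**
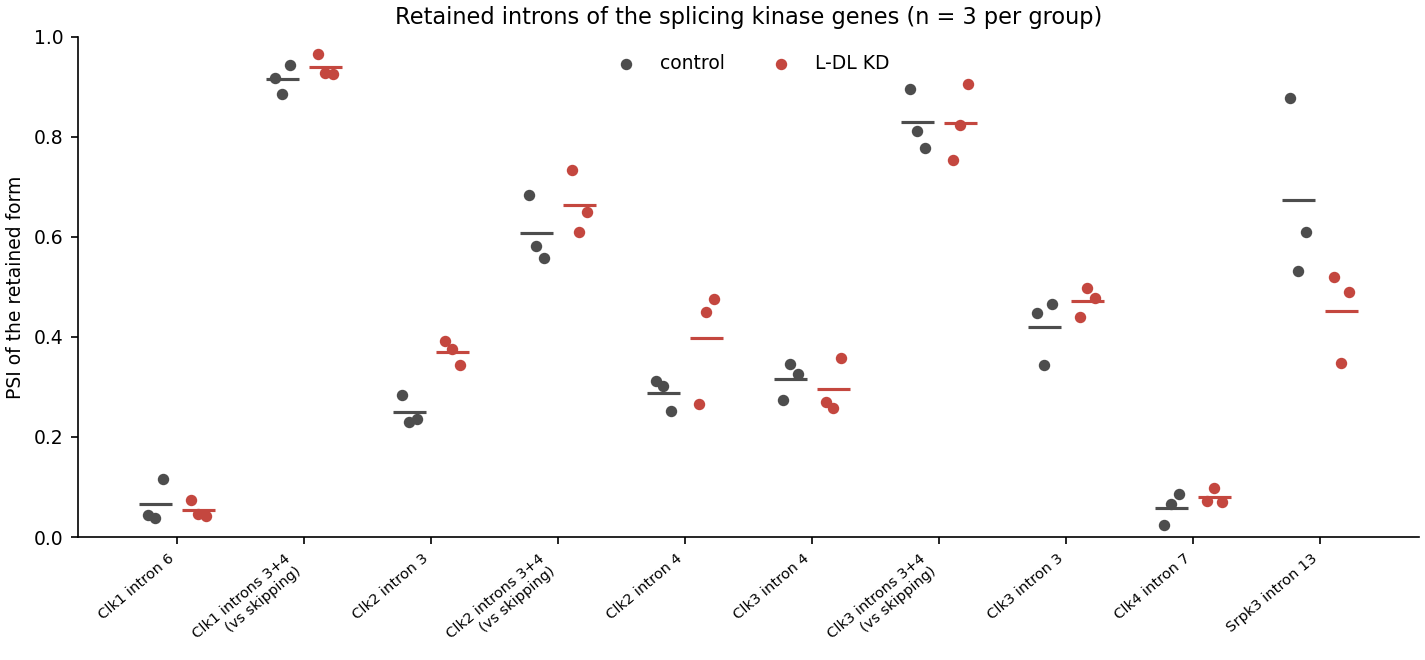
Retained introns of the splicing kinase genes. Points are PSI of the retained form in each library, from 0 to 1, with control libraries in grey and libraries labelled L-DL KD in red, and bars are group means (n = 3). The groups are apart in intron 3 of Clk2, scored to its first acceptor only, with higher PSI in the libraries labelled L-DL KD. They are also apart in intron 13 of Srpk3, with lower PSI, and overlap in the other 8.

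The remaining event with an unadjusted p under 0.05 was exon 8 of Clk1 (95 nt), where no skipping read was counted in the 3 control libraries and 11, 2 and 0 were counted in the others, beside 576, 663 and 680 inclusion reads (unadjusted p = 0.036, adjusted p = 0.35, edgeR). It rests on the first library labelled L-DL KD. For the members with no event of the kinds above, the event with most reads is given. Exon 5 of Srpk1 (88 nt) was included at 0.993 ± 0.012 and 0.987 ± 0.013, and exon 14 of Srpk2 (93 nt) at 0.998 ± 0.003 and 0.994 ± 0.010. Both had too few skipping reads to be tested. The only tested event of each gene is added here for that reason: exon 10 of Srpk1 (214 nt) had a PSI of 0.931 ± 0.049 and 0.883 ± 0.010 (adjusted p = 0.68), and an exon of 64 nt of Srpk2 had 0.656 ± 0.054 and 0.611 ± 0.068 (adjusted p = 0.89). Exon 2 of Dyrk1a (86 nt) was included at 0.945 ± 0.095 and 0.932 ± 0.082 (adjusted p = 0.99). In Prpf4b, an exon of 106 nt found in a transcript annotated as nonsense-mediated decay had a PSI of 0.039 ± 0.020 and 0.021 ± 0.009 (adjusted p = 0.62).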

How the data were processed

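Hippocampal RNA libraries of 3 control samples and 3 samples labelled L-DL KD were analysed. Groups were taken from the genotype label. The gene counts deposited by the authors are unnormalized reads on each Ensembl gene, from 150 nt read pairs aligned to GRCm38, and the splicing table deposited by the authors holds rMATS (v4.1.0 in the study's methods) junction counts of the inclusion and skipping form of each event with the effective lengths of both forms. The submitters' processing notes name HISAT2 2.1.0, Bowtie 1.1.2 and HTSeq 0.6.1. Strand setting and treatment of reads that map to several places are not given in the sources used here. The rMATS p-values, FDR and inclusion levels in the file are the authors' own comparison and were used in no test. The L-DL KD counts of an event were taken as the first sample group of the table, which names no groups. This rests on the direction in which the study defines a PSI change. It also rests on the shares of positive and negative level differences by rMATS, which match the study's wording. That table lists 3 values per group without replicate numbers.

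Genes that reached 10 counts in 3 or more libraries were tested with edgeR (version 4.0.16) in R (version 4.3.3), with TMM scaling and the quasi-likelihood test, at a Benjamini-Hochberg adjusted p under 0.05 over all genes. Events that averaged 20 or more counts a library, and 1 or more of each form, were tested with edgeR on 12 columns, the 2 forms in each of 6 libraries, with a library term. For single values an exact permutation test (two-sided) was used, which cannot go below p = 0.1 with 3 against 3. Coordinates are 1-based and, with exon numbers and sequences, come from GENCODE M21 (GRCm38). Members, lists and tests were chosen with earlier results of these data known. All 9 members, all tested retained introns, the conserved CLK exon, events with an unadjusted p under 0.05, the event with most reads of a member without these, and the 3 genes of each list with the smallest p are named. A gene of the related kinases that this rule would name is not reported here. Akt1, Ppp2ca, Tnpo3, Cirbp, Rbm3, the Clk2 acceptor event, the Clk4 event of the 59 nt exon alone and the sole tested events of Srpk1 and Srpk2 are named beyond this rule.

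On simulated counts with 197 genes changed by 1 on the log2 scale among 17330, the expression test recovered 58.4%, and called 11 unchanged genes. In the data 5379 genes were called, far more than were changed in the simulation, so that recovery need not carry over. On simulated junction counts of 17936 events, 57.1% of 191 events changed by 2.16 on the log2 odds scale, more than any Clk4 event tested, were recovered and 3 unchanged events were called. The spread of the odds between libraries was set to a fixed value there and not estimated from the data. Alternatives were a replicate block, library-size scaling, looser and stricter filters, DESeq2 (version 1.42.0), limma (version 3.58.1) applied to log2 inclusion over skipping counts (pseudocount 0.5), PSI from unscaled or summed counts, and fits that left out a library. The share of boundary reads around exon 4 was added after the data had been seen.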

Additional observations from a re-analysis of the deposited data

How the results depend on the processing

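Over the members, 2 genes were lower in every alternative. The number higher, 0 as reported, was 1 (Clk4) with DESeq2, with scaling by library size, without a filter on low counts and with the replicate block, and ranged from 0 to 2 when a library was left out, with 2 (Clk1 and Clk4) without library 1 of the L-DL KD group. The log2 fold change of Clk3 ranged from -0.048 to 0.12 with a library left out, and turned negative without library 2 (-0.0085) or 3 of the L-DL KD group. That of Prpf4b ranged from -0.12 to 0.031, and turned positive without control library 3 (0.019) or library 1 of the L-DL KD group (0.031).

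Of the SR protein list, 2 were higher with scaling by library size, and 1 was lower with DESeq2 and with at least 1 CPM in all libraries. With a library left out, 0 to 3 were higher and 0 to 1 lower. Of the related kinases, 1 was lower with scaling by library size, without a filter and with the replicate block, and 1 to 3 with a library left out. Of the phosphatases and the importer, 1 was higher without a filter and with the replicate block, and 0 were lower with scaling by library size, without a filter and with the replicate block. With a library left out, 0 to 3 were higher and 0 to 2 lower. Of the temperature-linked genes, 1 was higher with DESeq2, with scaling by library size, without a filter, with at least 1 CPM in all libraries and with the replicate block, and 0 to 1 with a library left out. The cause of these differences was not tested.

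Replicate numbers did not pair the gene libraries: the correlations of same-numbered libraries' deviations from the group means were 0.07, 0.18 and -0.16. With the replicate block 4635 genes were called instead of 5379, and Clk4 was among them. No paired analysis was possible for splicing because the event counts carry no replicate number. Scaling by library size moved the median log2 fold change of all genes from 0.01 to 0.04, with 56.1% of the calls higher instead of 51.0%.

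Events of the members called were 2, both of the 67 nt exon of Clk4, when at least 50 counts per library and 5 of each form were asked for, where 504 of 8584 events passed in all, against 48 of 18829. Fewer events were tested there. The number with an unadjusted p under 0.05 ranged from 2 to 5 with a library left out, and was 2 without the second and 3 without the first control library listed. The median PSI change of retained introns ranged from 0.012 to 0.034 with a library left out. The Clk4 exon rests on 17 to 150 reads of a form in a library, and Srpk3 on 139 reads in its lowest library.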
